A study of Mus musculus with 12 samples.

Results

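The 10 genes described here encode Cyp39a1 and the other enzymes that start, shape and finish bile acid synthesis in the liver: Cyp7a1, Cyp8b1, Hsd3b7 and Akr1d1 of the neutral route, Cyp27a1, Cyp7b1 and Ch25h of the acidic and oxysterol routes, and the conjugating enzymes Slc27a5 and Baat. They were taken by gene name from a table of 46882 genes, all 10 were found there, and 8 passed the filter on low counts that left 13706 genes for testing. The set was chosen by the difference of Cyp39a1 between the genotypes in these same libraries, measured as read counts, and the others were listed with earlier results in view, so the differences between genotypes of all 10 are given as a description, with no p-value and nothing drawn from them. Livers of A1cf -/- mice (KO) were compared with livers of wild-type mice (WT), with 6 libraries of each genotype. All mice were C57BL/6 and 6 to 8 weeks old, the design text calls the libraries biological replicates, and the labels used here give neither sex nor feeding state. A1CF binds RNA and helps the deaminase APOBEC1 to edit Apob transcripts, and the labels do not say how the allele was made or in which cells it is lost.

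Bile acids are made from cholesterol in hepatocytes. In the neutral route CYP7A1 hydroxylates cholesterol at carbon 7, HSD3B7 and AKR1D1 remodel the steroid rings and CYP8B1 adds the hydroxyl group that distinguishes cholic acid. In the acidic route the side chain is hydroxylated first, by CYP27A1 or by the cholesterol hydroxylase CH25H, and CYP7B1 then acts on carbon 7 of the oxysterol. CYP39A1 does the same for oxysterols and prefers the one hydroxylated at carbon 24. SLC27A5 and BAAT finally join the side chain to coenzyme A and to taurine or glycine. Bile acids restrain their own synthesis through the nuclear receptor FXR (Nr1h4) and its target SHP (Nr0b2).

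CYP39A1, CYP7A1, CYP7B1, CYP8B1 and CYP27A1 are cytochromes P450, whose haem is held by a cysteine in a short conserved stretch. The coding bases of that stretch are shown because they identify Cyp39a1 and its relatives in the set. The longest reading frame of a coding GENCODE M21 transcript (GRCm38) of each gene was searched for phenylalanine, glycine, cysteine and glycine in the P450 spacing, and 1 match was found in each of the 4 genes below. The pattern was not found in Cyp8b1. Each run is 30 bases, 5′ to 3′ on the coding strand, with the cysteine codon in capitals.
Cyp39a1, chr17:43731982-43732011, plus strand: tttggaggcgggaagttccagTGTcctgga
Cyp7a1, chr4:6268386-6268415, minus strand: tttggatcaggagctacaataTGTcctgga
Cyp7b1, chr3:18072634-18072663, minus strand: tttggactcggaacaagcaaaTGTccaggg
Cyp27a1, chr1:74737320-74737349, plus strand: ttcggctatggggttcggtctTGCctgggt
The Cyp39a1 stretch lies in exon 10 of 12 and holds the cysteine at codon 415. It shares 19 of 30 bases with Cyp7b1, 17 with Cyp7a1 and 12 with Cyp27a1. The residues searched for fix some of these bases beforehand, so the counts describe the runs and measure no relatedness.

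RefSeq promoters (GRCm38.p6, 250 bases before to 50 after the start) were matched for 5 of the 10 genes: Cyp27a1, Akr1d1, Hsd3b7, Cyp8b1 and Ch25h. Those of Akr1d1 and Cyp8b1 are shown because both genes work on the intermediates that CYP7A1 makes, and because the 3 libraries with the most Cyp7a1 and the 3 with the least were also so in Akr1d1, but not in Cyp8b1. Capitals mark AGGTCA, the half-site of many nuclear receptors, or its reverse complement in Akr1d1, and TATAAA in Cyp8b1.
Akr1d1, chr6:37529923-37530222, plus strand: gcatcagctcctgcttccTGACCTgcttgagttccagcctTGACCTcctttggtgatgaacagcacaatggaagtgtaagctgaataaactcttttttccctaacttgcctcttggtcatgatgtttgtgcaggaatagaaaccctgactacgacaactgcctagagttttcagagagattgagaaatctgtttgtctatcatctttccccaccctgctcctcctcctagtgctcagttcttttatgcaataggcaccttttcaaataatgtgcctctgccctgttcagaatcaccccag
Cyp8b1, chr9:121916256-121916555, minus strand: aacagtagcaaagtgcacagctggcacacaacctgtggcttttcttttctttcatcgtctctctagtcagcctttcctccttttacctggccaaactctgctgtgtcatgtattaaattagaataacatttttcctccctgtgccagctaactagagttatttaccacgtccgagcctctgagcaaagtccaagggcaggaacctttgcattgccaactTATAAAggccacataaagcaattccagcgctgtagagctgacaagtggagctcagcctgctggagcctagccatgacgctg
Akr1d1 held 2 matches to AGGTCA, both on the minus strand, and 16.3% of 32851 promoters held at least 1 on either strand. Cyp8b1 held 1 TATAAA, 31 bases before the start, as did 13.6% of promoters anywhere in the window on either strand. TCAAGGNCA, searched as 1 form of the extended half-site of NR5A2, was in none of the 5 promoters and in 1.62% of all. Other forms were not searched, and the Cyp8b1 promoter holds ccaagggca, which differs from the searched pattern in the first base only. CCAAT was found 2 times in Cyp27a1 and in 37.4% of all promoters. A match is only a match of letters.

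Libraries held 22129092 to 51082317 counted fragments in KO and 25898171 to 40597491 in WT. A1cf itself had 8.20 to 12.6 CPM (fragment counts relative to library size, scaled by TMM) in KO livers and 47.9 to 53.8 CPM in WT livers, a log2 fold change of -2.26 ± 0.09 (SE). Between KO and WT, 523 of 13706 genes passed an adjusted p of 0.05 in edgeR's quasi-likelihood test, 236 higher and 287 lower in KO. Scaled by library totals alone the split was 266 higher and 139 lower. Of the same 13706 genes DESeq2 called 1175 and limma-voom 562. Counts of called genes in the lists below are a description to be read beside these totals. The library numbers in the labels fall into 2 ranges, 573 to 602 with 5 KO and 3 WT libraries and 776 to 780 with 1 KO and 3 WT libraries. The labels do not say what the numbers stand for. Differences within the ranges are given beside several results because Cyp39a1, of the 8 tested genes, differed between them. WT 590 had the highest WT level of several bile acid genes, and values without it are given where they move.

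Cyp39a1 had the largest difference between genotypes of the 8 tested genes, and was lower in KO. Its levels were 2.16, 6.85, 2.60, 2.60, 3.798 and 7.36 CPM in KO 574, 584, 588, 591, 602 and 780, against 16.4, 12.4, 10.8, 43.9, 29.9 and 31.3 CPM in WT 573, 590, 601, 776, 777 and 778. The groups did not overlap: the highest KO liver lay below the lowest WT liver. The means were 4.23 ± 2.30 CPM in KO and 24.1 ± 13.04 CPM in WT (SD, n = 6 each), so KO livers held 17.5% of the WT mean. The log2 fold change was -2.53 ± 0.44 (SE), and -2.76 to -2.28 with any 1 library left out. These levels rest on 61 to 175 fragments per KO library and 264 to 1194 per WT library, above the floor of 3 fragments in every library. In the fit across all genes, which marked 3.82% of tested genes (2.09% lower and 1.72% higher in KO), Cyp39a1 was the 1 gene of the 8 marked, as the choice of the set on this contrast had fixed. It was also the 1 gene of the 8 whose groups separated, while 1.97% of tested genes had every KO library below every WT library and 1.33% every KO library above. Neither count is evidence about the set. The gene lies at chr17:43667425-43751431 on the plus strand (mm10) with 3053 exonic bases in 12 blocks, and shares no exonic base with another annotated gene.

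**Figure D1:**
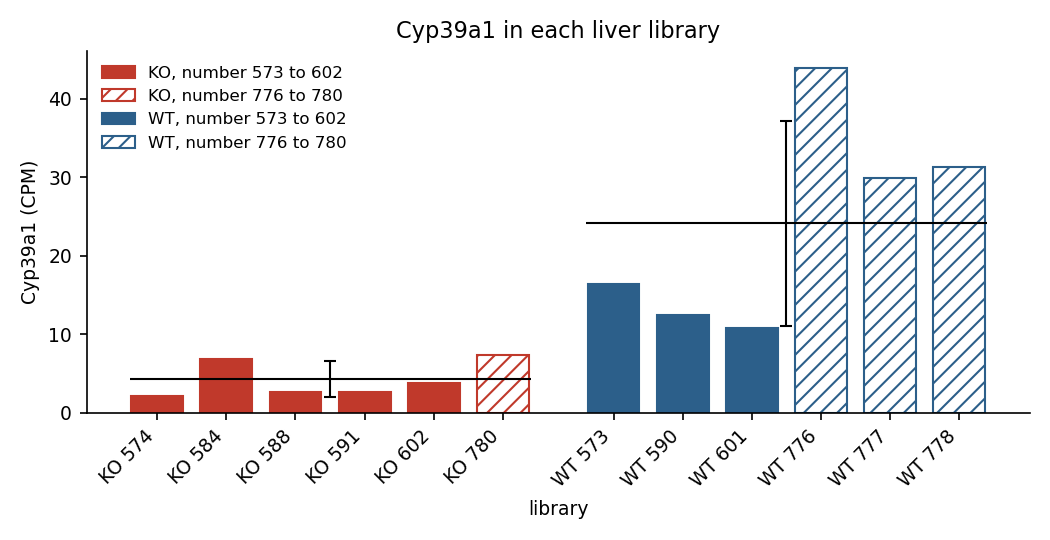
Bars give Cyp39a1 in CPM in each library, with KO in red, WT in blue and libraries numbered 776 to 780 hatched. Black lines are group means with SD (n = 6). All KO bars, 2.16 to 7.36 CPM, stand below the lowest WT bar at 10.8 CPM, and the 3 hatched WT bars are the tallest.

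Levels of Cyp39a1 also differed between the number ranges within WT. Libraries 776 to 778 held 29.9 to 43.9 CPM, and WT 573, 590 and 601 held 10.8 to 16.4 CPM. The only KO library of the 776 to 780 range had the highest KO level, 7.36 CPM, but KO 584 of the other range was close to it at 6.85 CPM. KO was lower within each range, by a difference in mean log2 CPM of -1.96 in 573 to 602 and -2.22 in 776 to 780, smaller than the -2.53 over all libraries. In a model of genotype and range, Cyp39a1 was higher in 776 to 780 by 1.29 ± 0.28 on the log2 scale (SE; edgeR, adjusted p = 0.029), 1 of 8 tested members against 4.36% of all tested genes. That the WT libraries differed by range was known before this test was chosen. The call was lost without KO 780, WT 590, WT 601, WT 776 or WT 778, with adjusted p up to 0.13.

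Acute phase genes, which the liver makes in inflammation, also differed between libraries of a genotype. The mean log2 CPM of 24 of them was 10.74, 8.999 and 8.44 in KO 602, 588 and 591 and 7.23 to 7.60 in the other KO livers, against 9.96 and 9.53 in WT 590 and 601 and 6.83 to 7.48 in the other WT livers. WT 590 and WT 601, the highest WT livers in acute phase genes, were the lowest in Cyp39a1, but WT 573, also low in Cyp39a1 at 16.4 CPM, had an acute phase mean of 6.83. In KO no such order held, since KO 574 had the least Cyp39a1 with an acute phase mean of 7.42. Between genotypes 0 of 24 acute phase genes passed in edgeR, 2 had an unadjusted p under 0.05, and DESeq2 called 1, Cd14, and limma-voom 0. Of the 24, 19 had fold changes above 0, with a median of 0.37 beside 0.01 over all tested genes. Cd14 stood at 0.75 ± 0.25 and Lbp at -0.30 ± 0.10 (adjusted p 0.11 and 0.12). Their part in the Cyp39a1 levels was not tested.

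Cyp7a1, which encodes the first and rate-limiting enzyme of the neutral route, varied most between mice. It had 110.0, 225, 332, 361, 111 and 163 CPM in KO 574, 584, 588, 591, 602 and 780, against 125, 489.5, 179.9, 37.2, 22.4 and 52.7 CPM in WT 573, 590, 601, 776, 777 and 778. The groups overlapped widely, with both the highest and the lowest library in WT. The highest WT liver had 21.8 times the lowest, and the highest KO liver had 3.28 times the lowest. The log2 fold change was 0.52 ± 0.69 (SE), smaller than its error. Without WT 590 it was 1.38, fitted in libraries 573 to 602 alone it was -0.21, and limma-voom gave 1.11. Neither its size nor its direction held across settings. The 3 WT livers of the 776 to 780 range were the lowest of all, below KO 780 at 163 CPM. The range term was -1.81 ± 0.63 (SE; adjusted p = 0.13), short of the threshold and opposite in sign to that of Cyp39a1. Over the 12 libraries the pooled within-genotype SD of Cyp7a1 was 1.27 on the log2 scale, and 0.627% of tested genes had a larger one. That of Cyp39a1 was 0.78 (3.41% larger), and the median of all tested genes was 0.24.

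Akr1d1, the reductase that gives the steroid rings their bend, shared its highest and lowest libraries with Cyp7a1 in part. It ranged from 102 to 231 CPM in KO with a median of 153 CPM, and from 78.3 to 213 CPM in WT with a median of 101 CPM. WT 590 was again the highest WT liver at 213 CPM, and KO 588 and KO 591, the KO livers with the most Cyp7a1, were the highest KO livers at 231 and 168 CPM. WT 776 to 778 were the lowest of all 12 at 78.3 to 96.5 CPM. KO 584 differed, with the least Akr1d1 in KO (102 CPM) and the third most Cyp7a1 (225 CPM), and KO 574, with the least Cyp7a1 in KO, had more Akr1d1 (149.8 CPM) than KO 584 and KO 602. The relation between both genes was not tested. The groups overlapped, with 1 KO library above every WT library, and the log2 fold change was 0.42 ± 0.24 (SE), or 0.68 without WT 590 and 0.11 in libraries 573 to 602.

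Cyp8b1, the 12-hydroxylase that sets the share of cholic acid, was among the steadiest. It ranged from 493.1 to 839.6 CPM in KO with a median of 669 CPM, and from 643 to 1006 CPM in WT with a median of 784 CPM. The groups overlapped and 3 KO livers lay below all WT livers. The log2 fold change was -0.27 ± 0.14 (SE). The difference in mean log2 CPM was -0.28 in 573 to 602 against 0.02 in 776 to 780. WT 590, the highest WT liver in Cyp7a1, was the lowest WT liver in Cyp8b1, at 643 CPM.

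Hsd3b7, whose product oxidises the ring after CYP7A1 or CYP7B1, could not be measured here. It had 2 to 6 fragments per KO library and 4 to 9 per WT library, or 0.084 to 0.141 CPM in KO and 0.143 to 0.287 CPM in WT. The CPM ranges did not overlap but the counts did, and several of these libraries were at or under the floor of 3 fragments, so no fold change is given. In the annotation used for counting, 2746 of its 2769 exonic bases (99.2%) also belong to RP23-325D10.3 or RP23-325D10.4. By the counting tool's default a read over several genes is counted for none of them. RP23-325D10.3 had 0 fragments in every library and RP23-325D10.4 had 13 to 38, so the low value shows neither that the gene is expressed nor that it is not.

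In the acidic route, Cyp7b1 lay below every WT liver in most KO livers and Cyp27a1 did so in 3 of 6. Cyp7b1, whose product acts on carbon 7 of oxysterols, ranged from 65.6 to 188 CPM in KO with a median of 85.3 CPM, and from 117 to 249 CPM in WT with a median of 198 CPM. In 4 of 6 KO livers it lay below every WT liver, and KO 602, at 188 CPM, lay well inside the WT range. The log2 fold change was -0.85 ± 0.27 (SE), -1.11 without KO 602, and the difference within ranges was -0.88 in 573 to 602 and -1.28 in 776 to 780. KO 602 was also the KO liver with the most acute phase mRNA. After Cyp39a1, Cyp7b1 had the largest log2 fold change in size of the 8 genes over all libraries, which is a description only.

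Cyp27a1, the mitochondrial side-chain hydroxylase used by both routes, ranged from 247 to 539.8 CPM in KO with a median of 424 CPM, and from 408 to 583 CPM in WT with a median of 492.8 CPM. KO 574 and KO 584 were the low livers at 288 and 247 CPM, and the groups overlapped. The log2 fold change was -0.33 ± 0.18 (SE). Ch25h, the 25-hydroxylase that acts outside the mitochondria and is known as an interferon-induced gene of macrophages, had 1 to 10 fragments per KO library and 0 to 6 per WT library. This was 0.042 to 0.388 CPM in KO and 0 to 0.146 CPM in WT, against a floor of 0.059 to 0.131 CPM, and it was not tested. In its exons 159 bases (11.8%) overlap Gm26902, which had 0 to 2 fragments. Ch25h lies on chromosome 19, 2.52 Mb from A1cf.

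The conjugating enzymes differed least. Slc27a5, the bile acid coenzyme A ligase, ranged from 734 to 1152 CPM in KO with a median of 856 CPM, and from 778 to 1208 CPM in WT with a median of 918 CPM. Baat, which joins the activated acid to taurine or glycine, ranged from 181 to 303 CPM in KO with a median of 259.6 CPM, and from 254 to 336 CPM in WT with a median of 281 CPM. Groups overlapped for both genes. The log2 fold changes were -0.14 ± 0.15 for Slc27a5 and -0.16 ± 0.12 for Baat (SE).

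**Figure D2:**
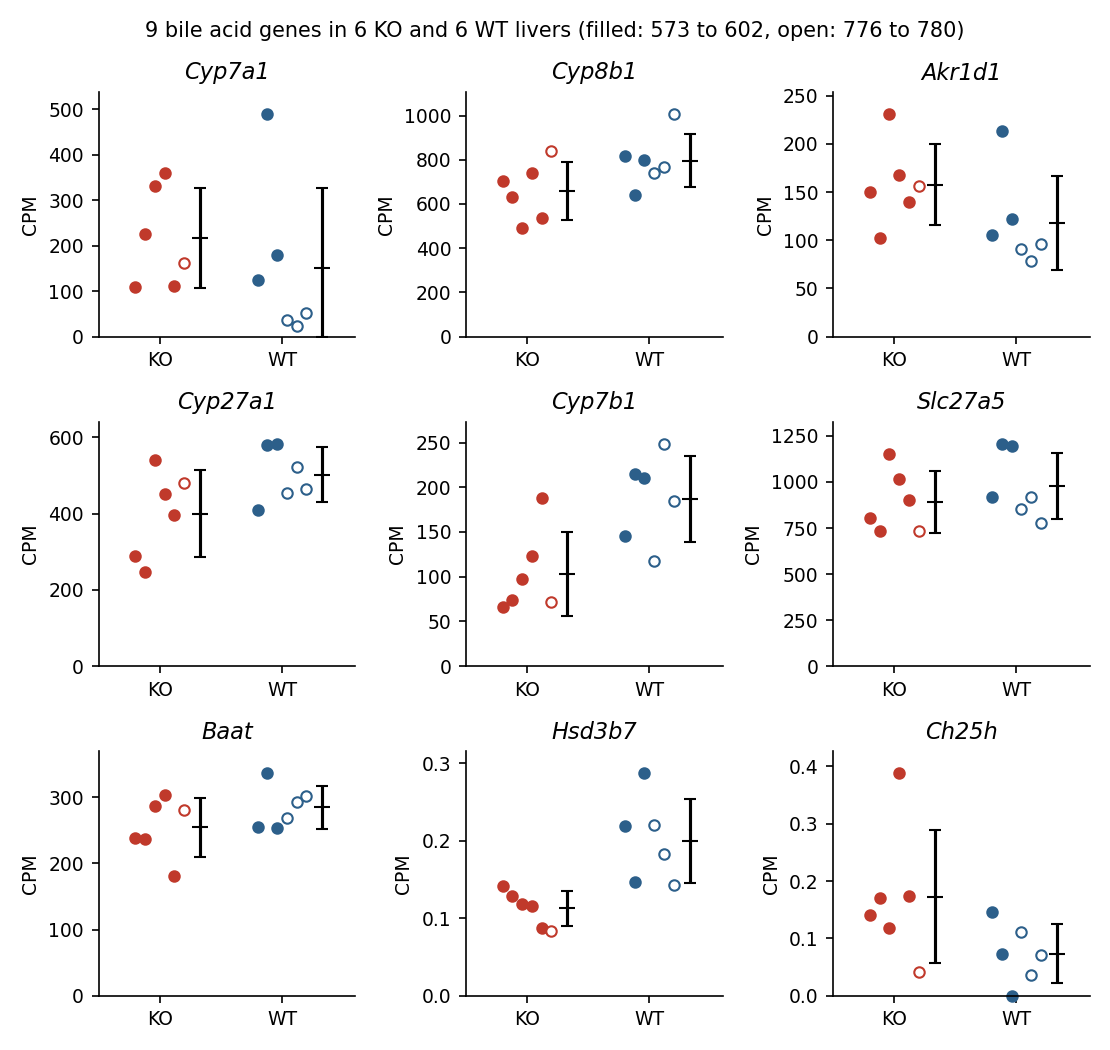
Each panel plots CPM of 1 gene in KO (red, left) and WT (blue, right) livers, with open points for libraries 776 to 780 and black marks for the mean and SD (n = 6 each, cut at 0 for Cyp7a1 in WT). Cyp7a1 and Akr1d1 share a high WT point, WT 590, and 3 low open WT points. Hsd3b7 and Ch25h lie near the counting floor.

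Within the number ranges, Cyp39a1, Cyp7b1 and Slc27a5 kept a difference in mean log2 CPM of like size and the same sign in both. For Slc27a5 it was -0.27 in 573 to 602 and -0.21 in 776 to 780. Akr1d1 kept its sign but not its size (0.12 and 0.82), and Cyp7a1 kept neither. Cyp8b1, Cyp27a1 and Baat had -0.28, -0.49 and -0.19 in 573 to 602 and 0.02, 0.0013 and -0.03 in 776 to 780. The 776 to 780 range has a single KO library, so its difference has no error for that genotype.

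**Figure D3:**
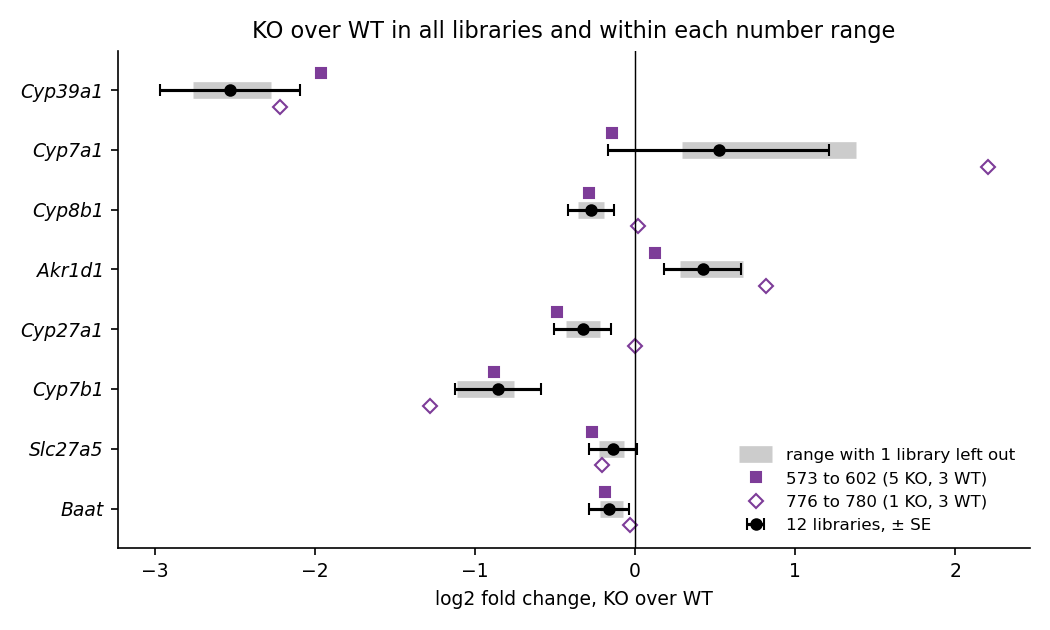
Points are log2 fold changes of KO over WT with standard errors for the 8 tested genes, grey bars the range with 1 library left out, squares and diamonds the difference in mean log2 CPM within each number range. Cyp39a1 lies near -2.5 over all libraries and near -2 within both ranges, while Cyp7a1 stands at -0.14 in one range and 2.21 in the other.

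Per exonic length, Cyp39a1 was the least abundant of the tested enzymes in both genotypes. Its mean was 1.38 ± 0.753 RPKM in KO and 7.90 ± 4.27 RPKM in WT (SD, n = 6 each). In WT the order ran from Cyp8b1 at 408 RPKM and Slc27a5 at 400.5 RPKM, whose ranges overlapped, through Cyp27a1 at 231, Baat at 147 and Cyp7b1 at 86.3 RPKM to Akr1d1 at 40.7, Cyp7a1 at 36.2 and Cyp39a1 at 7.90 RPKM. Neighbours from Cyp7b1 down to Cyp39a1 overlapped between libraries, while Slc27a5, Cyp27a1 and Baat were each apart from the next. Cyp39a1 ranged from 3.55 to 14.4 RPKM in WT and Cyp7a1 from 5.37 to 117 RPKM. The overlap of these neighbours came from WT 776, WT 777 and WT 778, which had both the least Cyp7a1 and the most Cyp39a1 in WT. In KO the order had Slc27a5 first and placed Akr1d1 (54.5 RPKM) and Cyp7a1 (52.0 RPKM) above Cyp7b1 (47.7 RPKM). Bulk RNA cannot tell fewer cells expressing a gene from less of its RNA per cell.

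**Figure D4:**
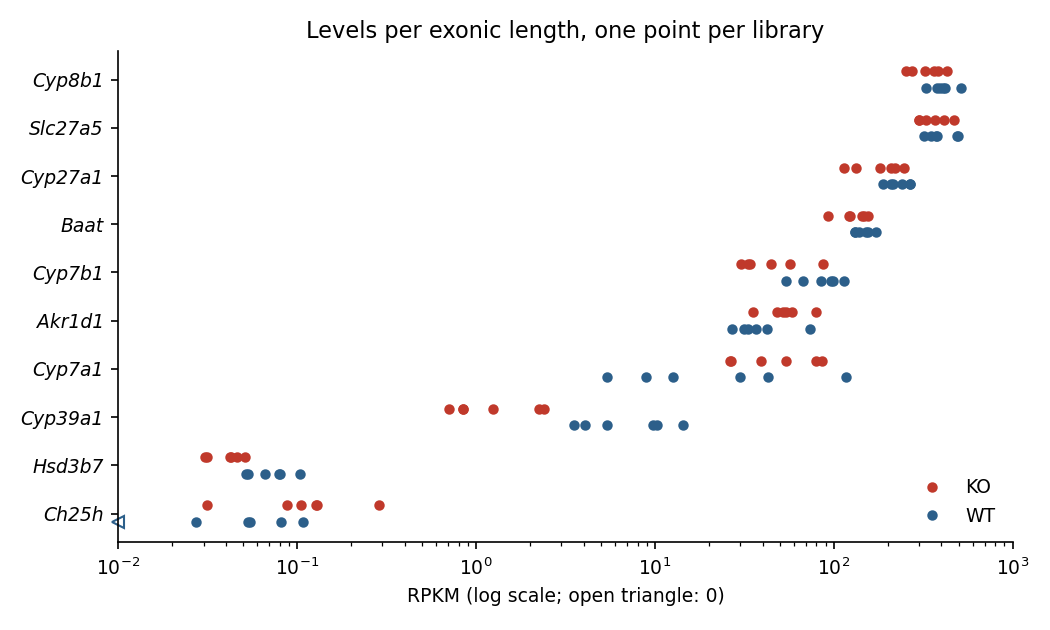
Points are libraries, with KO (red) above WT (blue) for each gene, on a log scale of CPM per exonic kilobase (RPKM); an open triangle is a library at 0. Cyp39a1 is the only tested gene whose red and blue points do not overlap, and it lies below the other 7 tested enzymes on average.

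The members were next compared as deviations from their genotype means, so that the difference between genotypes did not enter. Across the 12 libraries Cyp39a1 ran opposite to Slc27a5 (Pearson r = -0.78, permutation p = 0.0083; Spearman rho = -0.72, p = 0.016), Akr1d1 (r = -0.66, p = 0.022; rho = -0.68, p = 0.023) and Cyp7a1 (r = -0.61, p = 0.051; rho = -0.55, p = 0.092). None of the 9 relations passed after Benjamini-Hochberg adjustment, the smallest adjusted p being 0.075 for r and 0.11 for rho. With deviations taken within number range (11 libraries) r was smaller in size, -0.57 for Slc27a5, -0.57 for Akr1d1 and -0.06 for Cyp7a1 (permutation p = 0.15, 0.12 and 0.89). It was larger for Cyp27a1, at -0.59 against -0.28 over all libraries, and for Baat, at -0.38 against -0.05 (permutation p = 0.17 and 0.42). Without WT 776 and KO 780, the 2 libraries farthest from the median of Cyp39a1, r was -0.74, -0.75 and -0.58. Over all 12 libraries r lay between -0.30 and 0.30 for Cyp7b1, Cyp8b1, Cyp27a1 and Baat, with permutation p of 0.35 to 0.87. Hsd3b7 and Ch25h were counted among the 9 relations, but they rest on 0 to 10 fragments per library and their r is not given.

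**Figure D5:**
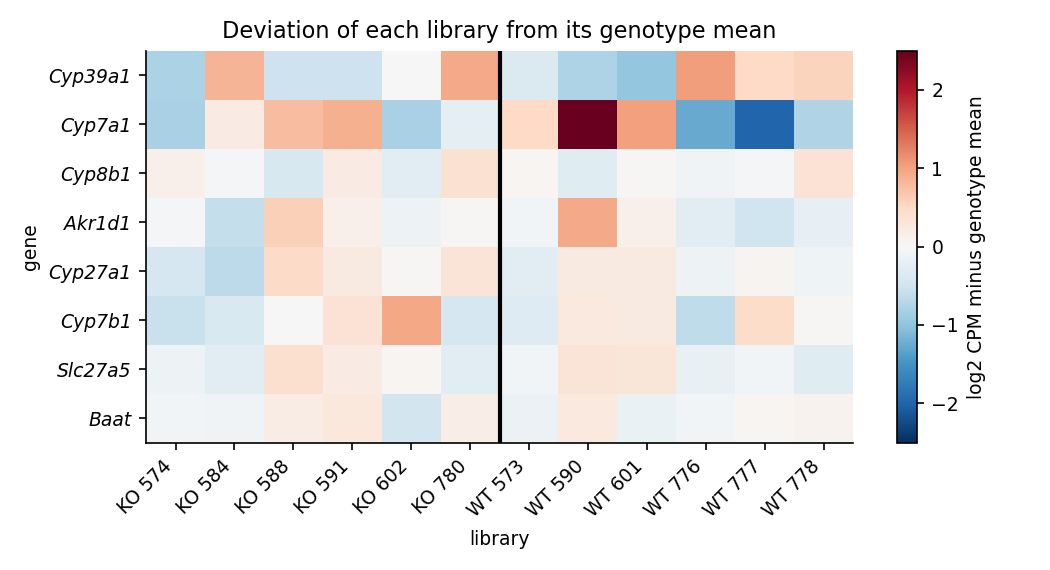
Colours give log2 CPM minus the genotype mean for the 8 tested genes (rows) in each library (columns), KO left of the line and WT right. WT 776 to 778 are above the mean for Cyp39a1 and below it for Cyp7a1 and Akr1d1, and WT 590 is the reverse, with a Cyp7a1 deviation of 2.47.

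Among the genes with deviations most like those of Cyp39a1 over the 12 libraries were Hnrnpm, Tpte, mt-Tg and Fam76b, with r from 0.94 to 0.95. Within number ranges (11 libraries) r was 0.82 to 0.88. None of these 4 passed between genotypes, where their log2 fold changes lay between -0.15 and 0.15. All 4 genes were higher in 776 to 780, with log2 differences of 0.32 for Hnrnpm, 1.46 for Tpte, 0.60 for mt-Tg and 0.43 for Fam76b. These genes were picked for the highest r among all tested genes, so their r values are a description. The deviations of Cyp39a1 used for the pick still held its own difference between ranges. The pick therefore favoured genes higher in 776 to 780, and their range differences are given as a description without p-values.

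Of 21 tested regulators of the pathway 1 fell and 0 rose in edgeR, near the 3.82% of all tested genes, and 3 had an unadjusted p under 0.05, with a median log2 fold change of 0.02 beside 0.01 over all tested genes. The one that fell was Rxra, the partner of FXR and LXR, at 412 to 448 CPM in KO (median 428) and 482 to 589.9 CPM in WT (median 527). Its groups did not overlap and its log2 fold change was -0.31 ± 0.08 (SE; adjusted p = 0.046), but the call was lost in 11 of 12 fits with 1 library left out, all except that without WT 776. FXR itself (Nr1h4) stood at 0.06 ± 0.15 (adjusted p = 0.87), with 138 ± 31.6 CPM in KO and 133 ± 22.6 CPM in WT (SD, n = 6 each). Its target SHP (Nr0b2), a repressor of Cyp7a1, ranged from 10.96 to 35.5 CPM in KO and from 24.1 to 64.3 CPM in WT, with a log2 fold change of -0.86 ± 0.35 (adjusted p = 0.19). The receptor Fgfr4 and its partner Klb, which carry the intestinal FGF15 signal, stood at -0.21 ± 0.11 and 0.03 ± 0.11 (adjusted p = 0.27 and 0.92). Between number ranges Rora (0.42) and Ppargc1a (0.66) were higher in 776 to 780 (adjusted p = 0.011 and 0.049).

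Among 16 other enzymes of the pathway 1 fell and 0 rose, where 3.82% of all tested genes were called and 2.09% were lower in KO. Of the 16, 6 had an unadjusted p under 0.05 and 14 had fold changes below 0, with a median of -0.29. The share of all tested genes at that unadjusted level is not given. Such counts, here and in the other lists, are therefore a description. Abcd3, the peroxisomal transporter that admits bile acid precursors for side-chain shortening, had 441 to 606 CPM in KO (median 497) and 602 to 937 CPM in WT (median 748), and 5 of 6 KO livers lay below all WT livers. Its log2 fold change was -0.58 ± 0.12 (SE; adjusted p = 0.015) and it passed in all 12 fits with 1 library left out. It did not pass in libraries 573 to 602 alone (-0.50, adjusted p = 0.13) or without WT 573 and KO 588 (-0.56, adjusted p = 0.074). The peroxisomal thioesterase Acot8 was called by DESeq2 only. Acox2, the oxidase of the same side-chain pathway, stood at -0.50 ± 0.19 (adjusted p = 0.14). Cyp2c70, the mouse enzyme that makes muricholic acid, had 14.3 to 138 CPM in KO and 23.2 to 249 CPM in WT, the highest again in WT 590, with a log2 fold change of -0.26 ± 0.76 (adjusted p = 0.88).

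Transporters of bile acids and biliary lipids gave 0 calls of 13 in edgeR, with 4 at an unadjusted p under 0.05, 1 by DESeq2 (Slco1a4) and 0 by limma-voom. The sinusoidal uptake carrier Slco1a4 stood at 0.79 ± 0.26 and the basolateral exporter Abcc3 at -0.42 ± 0.14 (adjusted p = 0.11 and 0.12). FXR-induced liver genes gave 0 calls of 9 in edgeR, 2 at an unadjusted p under 0.05, and 0 by DESeq2 and by limma-voom, with Pltp, the phospholipid transfer protein, at -0.94 ± 0.42 and Nr0b2 as above. LXR-induced genes gave 0 of 13 in edgeR, 3 at an unadjusted p under 0.05, and 0 by both other tools. The cholesterol exporters Abca1 and Abcg1, classic LXR targets, stood at 0.35 ± 0.12 and 0.54 ± 0.21 (adjusted p = 0.12 and 0.15). Medians of the 3 lists were -0.19, -0.0013 and 0.0073. Of 23 genes of cholesterol synthesis and uptake 22 had fold changes below 0, with a median of -0.33. The mean log2 CPM of the 23 ranged from 3.99 to 6.20 in KO and from 4.51 to 6.54 in WT, so the groups overlapped widely. The 1 gene called, lower in KO, was Hsd17b7, a ketosteroid reductase of cholesterol synthesis (-0.77 ± 0.17, adjusted p = 0.024). That call was lost without WT 777, WT 778, KO 574 or KO 588.

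Lists for sex bias, time of day and lobular position were read beside Cyp39a1, since liver P450 genes can follow each of them. Over all tested genes edgeR called 3.82%, and DESeq2 called 1175 of 13706. Cyp2b9 was the only one of 9 tested female-biased genes to pass, higher in KO at 4.89 to 97.6 CPM against 0.183 to 1.31 CPM in WT (6.12 ± 0.73, adjusted p = 0.0015). In libraries 573 to 602 alone it did not pass (6.32, adjusted p = 0.11), and over all libraries 3 of the 9 had an unadjusted p under 0.05 and DESeq2 also called Ntrk2. Mup20, a male pheromone protein, was the only one of 16 male-biased genes to pass, also higher in KO (1.29 ± 0.17, adjusted p = 0.0013), so the lists of both sexes held 1 rise each and their medians were 0.76 and 0.04. Clock genes gave 0 of 18 in edgeR, 2 at an unadjusted p under 0.05, 1 by DESeq2 and 0 by limma-voom, with a median of 0.09. Noct stood at 0.85 ± 0.27 and Ciart at -0.78 ± 0.36 (adjusted p = 0.095 and 0.24), while Dbp, an output of the clock, was lower in libraries 776 to 780, with a log2 difference of -0.71 (adjusted p = 0.016). Pericentral genes gave 0 of 14 in edgeR, 4 at an unadjusted p under 0.05, 2 by DESeq2 and 0 by limma-voom, with Gulo at -0.57 ± 0.16 and Lect2 at -0.94 ± 0.32 (adjusted p = 0.063 and 0.12) and a median of -0.10. Of 13 periportal genes Cdh1, the adhesion molecule E-cadherin, fell (-0.76 ± 0.19, adjusted p = 0.040), a call kept only without WT 601 or KO 780 among the fits with 1 library left out. The periportal median was -0.03. The part of these genes in the Cyp39a1 difference was not tested.

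Markers of hepatocytes, the cells that make bile acids, were abundant in all 12 libraries, with a summed level of 99513 to 116615 CPM in KO and 105849 to 127530 CPM in WT. The marker counts below stand beside 3.82% of all tested genes called in edgeR and 1175 of 13706 in DESeq2. None of the 10 hepatocyte markers passed in edgeR, 2 had an unadjusted p under 0.05, DESeq2 and limma-voom called 0, and Hnf4a stood at -0.22 ± 0.10 and Apoa1 at -0.29 ± 0.13 (adjusted p = 0.21 and 0.23). Fold changes lay below 0 for 9 of these 10, with a median of -0.12. All 11 Kupffer cell and macrophage markers had fold changes above 0 (median 0.69; summed 138 to 491 CPM in KO and 134 to 222 CPM in WT), with 0 calls in edgeR, 10 at an unadjusted p under 0.05, 3 by DESeq2 and 0 by limma-voom, and Csf1r at 0.70 ± 0.23 and Clec4f at 0.75 ± 0.25 (adjusted p = 0.10 and 0.11). Of 11 stellate cell and fibroblast markers, all above 0 with a median of 0.50 and summed at 368 to 516 CPM in KO and 224 to 388 CPM in WT, Pdgfrb (0.43, adjusted p = 0.024) and Lrat (0.68, adjusted p = 0.026) rose. Of the 11, 7 had an unadjusted p under 0.05. DESeq2 and limma-voom each called 3, adding Colec11, and in libraries 573 to 602 alone Dcn was called. Of 10 sinusoidal endothelial markers, all above 0 with a median of 0.20 and summed at 240.4 to 289 CPM in KO and 151 to 298 CPM in WT, Stab2 rose (0.48, adjusted p = 0.045). Of the 10, 2 had an unadjusted p under 0.05, and DESeq2 and limma-voom each called Stab2 alone. With 1 library left out, the call was lost for Pdgfrb without WT 573, WT 778 or KO 574, for Lrat without WT 573, WT 776, WT 777, KO 574 or KO 588, and for Stab2 in 9 of 12 fits, all except those without WT 778, KO 584 or KO 780. Stab2 also missed the threshold with number range as a covariate (0.45, adjusted p = 0.069), and Pdgfrb, Lrat and Stab2 all missed it in libraries 573 to 602. Their part in the Cyp39a1 difference was not tested.

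Markers of the remaining cells were low or did not pass. All 4 T, NK and B cell markers (median 0.43) and all 3 neutrophil and monocyte markers (median 1.05) had fold changes above 0. Fold changes lay below 0 for 4 of 5 cholangiocyte and gallbladder markers (median -0.14) and 3 of 5 red cell genes (median -0.09). Cholangiocyte and gallbladder markers gave 0 of 5 in edgeR, 0 at an unadjusted p under 0.05 and 0 by both other tools, with a sum of 24.4 to 509 CPM in KO and 27.1 to 118 CPM in WT, Muc1 at -0.39 ± 0.24 and Spp1 at 0.95 ± 0.81 (adjusted p = 0.37 and 0.54). T, NK and B cell markers gave 0 of 4 in edgeR, with 1 at an unadjusted p under 0.05, 1 by DESeq2 and 0 by limma-voom, a sum of 7.57 to 10.7 CPM in KO and 4.87 to 10.96 CPM in WT, Ptprc at 0.64 ± 0.20 and Cd79a at 0.41 ± 0.27 (adjusted p = 0.087 and 0.41). Neutrophil and monocyte markers gave 0 of 3 in edgeR, with 1 at an unadjusted p under 0.05, 1 by DESeq2 and 0 by limma-voom, a sum of 3.57 to 21.2 CPM in KO and 2.14 to 6.67 CPM in WT, Csf3r at 0.96 ± 0.26 and S100a8 at 1.20 ± 0.70 (adjusted p = 0.058 and 0.35). Red cell genes gave 0 of 5 in edgeR, 1 at an unadjusted p under 0.05 and 0 by both other tools, with a sum of 135 to 234 CPM in KO and 143 to 268 CPM in WT, Alas2 at -0.41 ± 0.17 and Hbb-bs at 0.13 ± 0.26 (adjusted p = 0.19 and 0.81).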

How the data were processed

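Libraries were made from total liver RNA with a TruSeq kit, per the labels' protocols. The deposited table holds raw counts of fragments per gene name on mm10, which the authors obtained with featureCounts 1.5.0-p2 (GENCODE M8 exons, no strand option), per the file headers, together with the exonic length of each gene. STAR and DESeq2 are named in the submitters' processing notes.

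Genes were kept by filterByExpr (minimum count 10) and tested with edgeR 4.0.16 in R 4.3.3 (TMM, robust quasi-likelihood, genotype only; genotype and range for the number ranges). The Benjamini-Hochberg adjustment ran over 13706 genes, and a gene rose or fell only under 0.05. Counts at an unadjusted p under 0.05 are given for the lists only, with no share of all tested genes beside them. CPM are scaled by TMM, log2 CPM have a prior count of 2, and RPKM divide CPM by exonic length. A count of 0 allows 3 fragments, 0.059 to 0.131 CPM, for counting error only. Correlations used 100000 permutations within genotype. Named genes were the members, 5 genes most like Cyp39a1 (1 of them is not reported here), 7 genes whatever their result, and per list up to 4 called genes or the 2 with the smallest p. The members and the 12 gene and 8 marker lists were chosen with earlier results of these data known. Alternatives included DESeq2 1.42.0 and limma-voom (limma 3.58.1). The steps were tested on simulated counts.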

Additional observations from a re-analysis of the deposited data

Results flagged for a closer look

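In 49 named genes, each in both genotypes, the highest or lowest library was compared with the others by Dixon's gap, and 9 of 98 gene and group pairs had a library far from the rest. Chance marks about 1 in 20 such groups. WT 590 stood out in 4 of them: Cyp7a1 at 489.5 CPM, Akr1d1 at 213 CPM, Cyp2c70 at 249 CPM and Klb, the FGF15 co-receptor, at 33.6 CPM, each the highest of its 6 WT libraries, whose medians were 88.6, 101, 39.1 and 25.4 CPM. KO 602 stood out in 3: Spp1 at 505 CPM against a KO median of 42.9, S100a8 at 5.67 CPM against 1.02 and Cd14 at 4.32 CPM against 2.51. Pltp was highest in KO 574 at 22.3 CPM against a median of 12.9, and Alas2 in KO 588 at 76.9 CPM against 53.9. No KO or WT library stood out in Cyp39a1.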

How the results depend on the processing

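No paired analysis was possible because the genotypes share no library number. Cyp39a1 stayed lower in KO under all 21 alternatives (log2 -2.76 to -1.89, the last in libraries 573 to 602). Genes called between KO and WT numbered 523, against 1175 by DESeq2, 57 in libraries 573 to 602, 206 without WT 573 and KO 588, and 266 to 638 with 1 library left out. In the 3 lists of other bile acid genes, 2 were called, against 4 by DESeq2, 1 with library totals only, 0 in libraries 573 to 602, 0 without WT 573 and KO 588, and 1 to 2 with 1 library left out. The 2 settings with 0 calls had fewer libraries, and the other causes were not tested. Between number ranges 598 genes were called, against 1405 by DESeq2, 21 in WT libraries only, and 18 to 883 with 1 library left out, the fewest without KO 780, the only KO library of its range. The range term of Cyp39a1 (1.29) missed the threshold with no low-count filter (1.28, adjusted p = 0.077), in WT libraries only (1.41, adjusted p = 0.050) and without WT 573 and KO 588 (1.36, adjusted p = 0.061), and lay between 1.16 and 1.41 with 1 library left out; the cause was not tested. Ch25h and Hsd3b7 had 0 to 10 fragments per library and did not pass the filter on low counts. For Hsd3b7, 99.2% of exonic bases also belong to other annotated genes, and the part of depth was not tested.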
